A study of Mus musculus with 6 samples.

Results

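Matrix metalloproteinases and their tissue inhibitors were examined in 4T1, a cell line from a mouse mammary carcinoma, with and without an shRNA against NFAT1. The set held 10 genes, of which 7 encode matrix metalloproteinases (Mmp2, Mmp3, Mmp9, Mmp10, Mmp11, Mmp13 and Mmp14) and 3 encode inhibitors (Timp1, Timp2 and Timp3). A probe set, the group of short probes that reads 1 transcript region on an Affymetrix array, was taken when the platform annotation gave it exactly 1 gene symbol and that symbol was one of the 10, out of 18193 genes so measured. This rule kept 22 of 45037 probe sets, 11 for the metalloproteinases and 11 for the inhibitors, and the rule itself used no measured value. The 10 genes were chosen with earlier results of these data known, so shares of them are descriptions. The first group was 4T1 cells transduced with a vector expressing the NFAT1 shRNA, on 3 arrays. The second was 4T1 cells transduced with a control shRNA vector, also on 3 arrays. Both grew as adherent cultures, went through 10 days of selection and differ in the labels only by the shRNA. The labels name 1 shRNA. Separate cultures behind the replicates are not mentioned, so the p-values may reflect technical spread alone.

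Matrix metalloproteinases are zinc-dependent enzymes that cut collagens, laminins, proteoglycans and other matrix proteins, and also growth factors and receptors at the cell surface. Most are secreted as inactive proenzymes whose propeptide has to be removed, and the Timps bind the active enzymes and block them. In mammary tumours these enzymes and inhibitors are made both by carcinoma cells and by stromal cells, and the balance between them bears on invasion. NFAT1, the product of Nfatc2, is a calcium-regulated transcription factor: the phosphatase calcineurin releases it into the nucleus. On many promoters it binds beside AP-1, the Fos and Jun factor through which several metalloproteinase genes are induced.

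Values are log2 RMA signals, so a difference of 1 is 2-fold, and array medians lay between 5.42 and 5.48. Nfatc2, the targeted gene, had 6 probe sets, 4 lower and 2 higher in NFAT1 shRNA cells, and with limma over the whole array 0 of them passed (3 had an unadjusted p under 0.05). Its probe set 1439205_at read 5.15, 5.43 and 5.29 on the NFAT1 shRNA arrays and 6.05, 6.18 and 5.91 on the control arrays (adjusted p = 0.0707). Its brightest probe set, 1426032_at, went the other way, with 6.19, 6.48 and 6.09 on the NFAT1 shRNA arrays and 5.92, 5.92 and 5.86 on the control arrays (adjusted p = 0.251), so each array is called by its label. Arrays within a group were unequally spaced. NFAT1 shRNA 1 correlated across probe sets with the 3 controls at 0.991 to 0.995, and with NFAT1 shRNA 2 and 3 at 0.986 and 0.985. For 312 of 314 probe sets with a control range of 1 or more and a signal reaching 7, control 3 fell between controls 1 and 2. Over all probe sets 90 passed limma at an adjusted p under 0.05, 34 higher and 56 lower in NFAT1 shRNA cells. This count was 5794, 0 and 80 without NFAT1 shRNA 1, 2 and 3 in turn, and 0 without control 1, 2 or 3. The numbers at an unadjusted p under 0.05 were then 12444, 4290 and 6493 without NFAT1 shRNA 1, 2 and 3, and 3992, 5086 and 4251 without control 1, 2 and 3. All 8 markers of the mammary carcinoma line (Epcam, Cdh1, Cldn4 and 5 keratins) were above the array medians. Markers of other cells were below every array median on all 6 arrays for 7 of 8 fibroblast genes (all but Pdgfra), 5 of 7 macrophage genes (all but Csf1r and Cd68) and 4 of 5 endothelial genes (all but Kdr).

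Of the 22 metalloproteinase and Timp probe sets 0 passed limma over all probe sets, where 0.200% of all probe sets passed. An unadjusted p under 0.05 was found for 5 of the 22, which is 22.7%, against 15.7% of all probe sets. Of these 2 were higher and 3 lower, against 8.03% and 7.65% of all probe sets. The 3 NFAT1 shRNA arrays did not overlap the 3 control arrays for 5 of the 22 as well, against 20.9% of all probe sets. Here 3 were higher and 2 lower, against 11.6% and 9.33%. Neither share was far from that of all probe sets. The median difference, NFAT1 shRNA minus control, was 0.065 over the 22 and 0.019 over all probe sets. The sizes were uneven, however: Mmp3 and Mmp10 had the highest values relative to control, Timp1 the lowest, and the other 7 genes had overlapping groups on their brightest probe set. The brightest probe set of a gene is the one with the highest mean over all 6 arrays, chosen without regard to group. In RNA from a whole culture, fewer cells making a transcript and less of it per cell cannot be told apart.

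**Figure D1:**
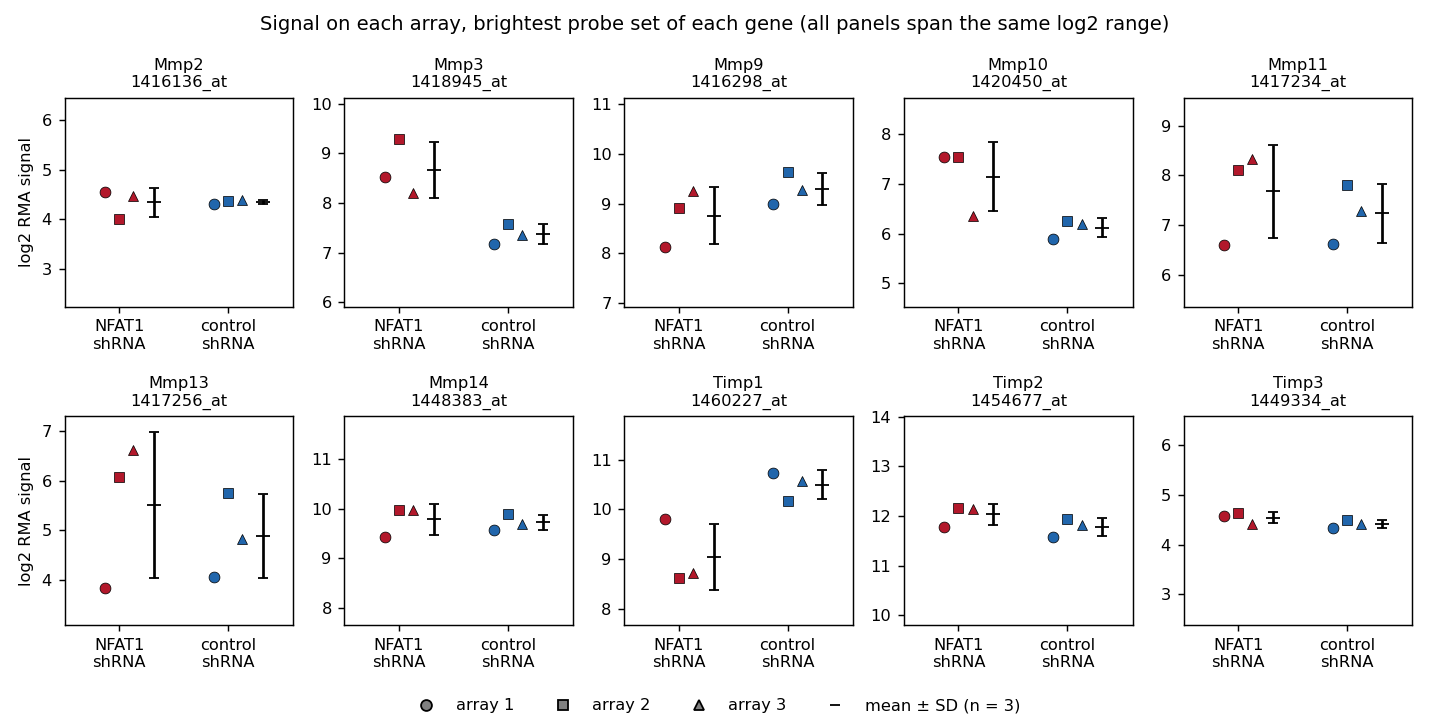
Signal on each array for the brightest probe set of each of the 10 genes. The vertical axis is the log2 RMA signal, with the same span in every panel, symbols mark arrays 1 to 3 of each group, and bars give the mean and SD (n = 3). Mmp3, Mmp10 and Timp1 have groups that do not overlap, while Mmp11 and Mmp13 are low on array 1 of both groups.

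The stromelysins Mmp3 and Mmp10 are secreted enzymes of broad substrate range that cut proteoglycans, laminin and fibronectin and can activate other metalloproteinases. Their genes lie in a cluster on mouse chromosome 9, in the order Mmp13, Mmp12, Mmp1b, Mmp3, Mmp1a, Mmp10 and Mmp8 among protein-coding genes. The promoters of Mmp3, Mmp10 and Mmp13 are shown because these 3 neighbours were measured here with different patterns, and that of Timp1 because its signal differed most in the other direction. They are RefSeq sequences of build GRCm38.p6, from 250 bases before to 50 bases after the annotated start, all on the plus strand and written 5′ to 3′, at chr9:7445572-7445871 for Mmp3, chr9:7502092-7502391 for Mmp10, chr9:7272264-7272563 for Mmp13 and chrX:20869916-20870215 for Timp1. Capitals mark each match, on either strand, of the AP-1 motif TGAGTCA and of GGAAA, the core that NFAT proteins bind.
Mmp3: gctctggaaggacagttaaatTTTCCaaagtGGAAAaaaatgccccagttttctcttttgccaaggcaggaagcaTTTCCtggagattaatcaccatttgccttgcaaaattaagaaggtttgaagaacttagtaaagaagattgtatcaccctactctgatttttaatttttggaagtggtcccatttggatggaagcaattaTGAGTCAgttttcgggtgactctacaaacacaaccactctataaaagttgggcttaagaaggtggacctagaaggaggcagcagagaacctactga
Mmp10: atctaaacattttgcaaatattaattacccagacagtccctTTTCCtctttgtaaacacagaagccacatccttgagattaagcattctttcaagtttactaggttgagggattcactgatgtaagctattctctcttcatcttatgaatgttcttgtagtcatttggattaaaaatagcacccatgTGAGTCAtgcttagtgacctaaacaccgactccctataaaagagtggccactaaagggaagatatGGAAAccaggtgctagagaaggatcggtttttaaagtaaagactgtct
Mmp13: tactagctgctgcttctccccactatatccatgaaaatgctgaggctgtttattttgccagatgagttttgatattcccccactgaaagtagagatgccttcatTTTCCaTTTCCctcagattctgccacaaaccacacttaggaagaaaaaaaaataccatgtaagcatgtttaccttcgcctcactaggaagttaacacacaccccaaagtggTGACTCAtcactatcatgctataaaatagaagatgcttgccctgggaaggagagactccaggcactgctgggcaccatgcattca
Timp1: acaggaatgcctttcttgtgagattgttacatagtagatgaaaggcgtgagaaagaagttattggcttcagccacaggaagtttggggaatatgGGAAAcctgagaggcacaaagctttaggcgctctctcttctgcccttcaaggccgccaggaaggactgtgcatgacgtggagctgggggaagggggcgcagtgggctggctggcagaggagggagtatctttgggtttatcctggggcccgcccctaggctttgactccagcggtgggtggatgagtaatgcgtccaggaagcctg

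In these windows the AP-1 motif occurred once in each of the 3 metalloproteinase promoters, starting 46 bases before the annotated start in Mmp3, 63 before it in Mmp10 and 35 before it in Mmp13. The exact letters TGAGTCA were not found in the windows of the other 5 members with a promoter in the table (Mmp11, Mmp14, Timp1, Timp2 and Timp3). Of 32851 mouse promoters of this length 5.20% hold them. Sequences that differ by a letter were not counted, such as TGAGTAA near the end of the Timp1 window. The search therefore does not show that these windows lack AP-1 sites. GGAAA occurred at 3 places in Mmp3, at 2 in Mmp10 and Mmp13 and at 1 in Timp1 and Mmp14, and 61.3% of all promoters hold at least 1. GGAAA contains the core GGAA that ETS factors bind, and no GGAAA match overlapped an AP-1 match in the 4 sequences shown. All 3 cluster promoters also had a TATAAA on the gene's strand, downstream of the AP-1 match. Of all promoters 8.32% hold a TATAAA on the gene's strand anywhere in the window, with or without an AP-1 match. A match of letters is a description of the sequence, and binding was not measured here.

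Mmp3 (1418945_at) read 8.52, 9.28 and 8.19 on NFAT1 shRNA arrays 1 to 3, against 7.17, 7.57 and 7.35 on control arrays 1 to 3. Every NFAT1 shRNA array was above every control array. The means were 8.66 ± 0.56 in NFAT1 shRNA cells and 7.37 ± 0.20 in control cells (SD, n = 3 each). They differed by 1.30 ± 0.27 (SE), or 2.46-fold on the RMA scale. The 95% interval of the fit, not adjusted for the number of probe sets, ran from 0.65 to 1.95. With limma the adjusted p was 0.142, so the difference did not pass. The exact permutation p (2-sided) was 0.1, the smallest that 3 arrays against 3 can give. Without NFAT1 shRNA 1 Mmp3 passed, with a difference of 1.37 (limma adjusted p = 0.0353), in a fit where 5794 of all 45037 probe sets passed. With array weights, which limma estimates from how closely each array follows the fit, Mmp3 passed at 0.0272 and 2279 of all probe sets passed. These weights were 0.37, 0.97 and 0.60 for NFAT1 shRNA 1, 2 and 3 and 1.15, 0.81 and 5.01 for control 1, 2 and 3, so calls made with them lean on control 3, which fell between the other controls for 312 of the 314 probe sets counted above. Mmp3 did not pass without NFAT1 shRNA 2 or 3 or any single control, with limma adjusted p from 0.115 to 0.482.

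Mmp10 (1420450_at) read 7.54, 7.55 and 6.35 on the NFAT1 shRNA arrays, against 5.90, 6.25 and 6.20 on the control arrays. Arrays 1 and 2 of the NFAT1 shRNA group were well above the controls, while array 3 was just above the highest of them. Its means were 7.15 ± 0.69 in NFAT1 shRNA cells and 6.12 ± 0.19 in control cells (SD, n = 3 each). They differed by 1.03 ± 0.33 (SE), or 2.04-fold. The limma adjusted p was 0.243 and the exact permutation p again 0.1. Without NFAT1 shRNA 3, the array nearest the controls, the difference was 1.43 and passed (limma adjusted p = 0.0462). It did not pass without any other single array (limma adjusted p from 0.161 to 0.568). Without NFAT1 shRNA 1 it was 0.84 (adjusted p = 0.161), so the setting in which Mmp3 passed was not one in which Mmp10 did.

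Mmp11, or stromelysin-3, is an unusual member that is activated inside the cell by furin and is best known from the stroma of breast carcinomas. Its probe set 1417234_at read 6.61, 8.10 and 8.33 on the NFAT1 shRNA arrays, against 6.63, 7.81 and 7.29 on the control arrays. Array 1 was the lowest of its group in both, and the groups overlapped. The difference was 0.44 ± 0.50 (SE, limma adjusted p = 0.683), with a 95% interval from -0.75 to 1.62. Its size depended on single arrays: it was 0.97, 0.23 and 0.11 without NFAT1 shRNA 1, 2 and 3 in turn, and 0.13, 0.72 and 0.46 without control 1, 2 and 3. It passed in none of these (limma adjusted p from 0.102 to 0.948).

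Mmp13, the main interstitial collagenase of the mouse, had the widest range over the 6 arrays among the brightest probe sets of the 10 genes, 2.76 on the log2 scale. On 1417256_at it read 3.85, 6.07 and 6.61 on the NFAT1 shRNA arrays, against 4.07, 5.76 and 4.82 on the control arrays. The lowest array of each group was array 1. On both of these arrays and on control 3 the signal was under the array median, a range that RMA compresses. Both the NFAT1 shRNA arrays (range 2.76) and the control arrays (range 1.69) differed among themselves by more than the group means did. The means were 5.51 ± 1.47 in NFAT1 shRNA cells and 4.88 ± 0.85 in control cells (SD, n = 3 each; difference 0.62, 95% interval -1.17 to 2.42, limma adjusted p = 0.704). The difference was 1.46, 0.34 and 0.07 without NFAT1 shRNA 1, 2 and 3 in turn, and 0.22, 1.06 and 0.59 without control 1, 2 and 3, and passed in none of these (limma adjusted p from 0.0922 to 0.973).

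**Figure D2:**
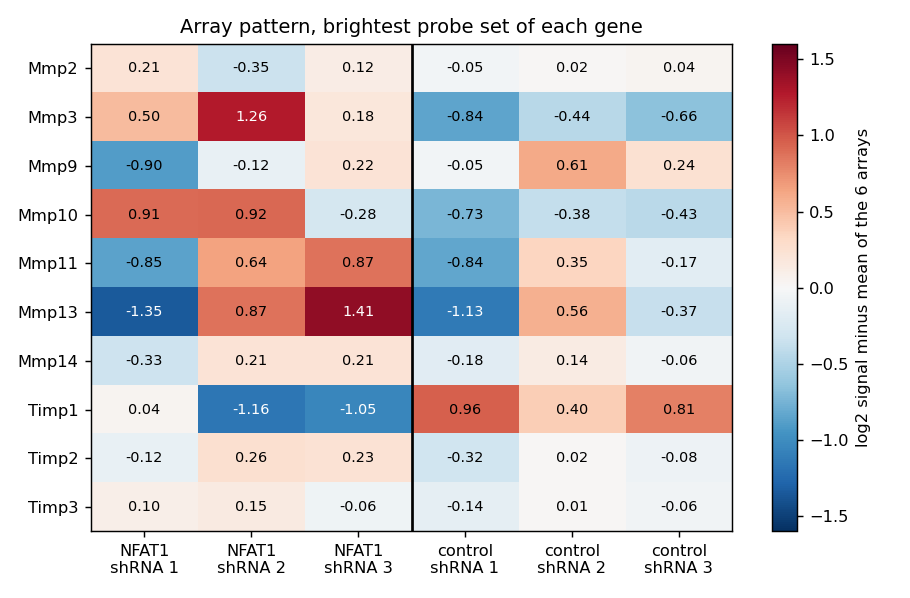
Log2 signal of each array minus the mean of the 6 arrays, for the brightest probe set of each gene (rows), with NFAT1 shRNA arrays on the left and control arrays on the right. Colour runs from blue (below the mean) to red (above it). Mmp11 and Mmp13 share a pattern in which array 1 of each group is low. Cd68, Pdgfra 1421917_at and Csf1r (not drawn) also have array 1 lowest in each group. Array 1 is the lowest of each group for Mmp9, Mmp14 and Timp2 too, whereas Mmp3, Mmp10 and Timp1 separate by group.

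Some markers of other cells had array 1 as the lowest of each group too, and others did not. Kdr, an endothelial marker, was highest on array 1 of the NFAT1 shRNA group. It read 6.14, 5.98 and 5.77 on the NFAT1 shRNA arrays, against 5.70, 5.71 and 5.55 on the control arrays. Cd68, a macrophage marker, read 6.23, 7.75 and 7.92 on the NFAT1 shRNA arrays, against 6.22, 6.85 and 6.55 on the control arrays. Pdgfra, a fibroblast marker, read 6.82, 8.44 and 7.88 on the NFAT1 shRNA arrays (1421917_at), against 6.30, 7.90 and 7.47 on the control arrays. Its dimmer probe sets 1438946_at and 1421916_at did not have array 1 lowest in both groups. Csf1r, another macrophage marker, read 6.99, 9.01 and 8.26 on the NFAT1 shRNA arrays (1419872_at), against 8.08, 8.49 and 8.23 on the control arrays. Array 1 was thus the lowest of each group for Csf1r, also on its probe sets 1419873_s_at and 1423593_a_at. The other 5 macrophage and 7 fibroblast markers were below the array medians on all 6 arrays. The mean over the macrophage list was 4.46 to 4.93 on the NFAT1 shRNA arrays and 4.62 to 4.75 on the control arrays, and over the fibroblast list 4.82 to 4.92 on the NFAT1 shRNA arrays and 4.62 to 4.79 on the control arrays. The part of these markers in the Mmp11 and Mmp13 pattern was not tested.

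The pattern of Mmp13 over the arrays was closest to that of another member. Among 3002 probe sets with 1 symbol, a range of at least 1 and a signal that reached 7, that of Mmp11 had the highest Pearson correlation with Mmp13 over the 6 arrays, 0.996. The next were Dcaf6, Hacd4, Ppp1r9a and Parp8, each at 0.992 to 0.993 and so nearly as close. The 5 genes closest to Mmp3, the member with the smallest unadjusted p, were Nav2 (0.990), Notum (0.988), Mrps6 (0.983), Rapgef3 (0.982) and the chemokine receptor gene Cxcr3 (0.981). With 6 arrays in 2 groups these correlations are descriptions of likeness only. Array 1 was the lowest array of its group in both groups for 9 of the 22 probe sets (40.9%), among them both Mmp9 and 2 of 3 Mmp14 probe sets, against 17.4% of all probe sets. Control 3 was the middle array of its group for 17 of the 22 (77.3%), against 49.1% of all probe sets. It was so for 312 of the 314 probe sets with a control range of at least 1 and a signal reaching 7 (99.4%). The shares over all probe sets include dim and flat ones, and several of the 22 read the same gene, so neither comparison marks a trait of the members.

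The gelatinases Mmp9 and Mmp2 cut denatured collagen and the collagen IV of basement membranes. Mmp9 had 2 probe sets, and the NFAT1 shRNA mean was the lower one on both. On 1416298_at, the brighter of them, the NFAT1 shRNA arrays read 8.13, 8.91 and 9.25 and the control arrays 8.99, 9.64 and 9.27. On 1448291_at the NFAT1 shRNA arrays read 7.80, 8.43 and 8.96, against 8.87, 9.30 and 9.07 on the control arrays. On both, NFAT1 shRNA 1 was the lowest of the 6 arrays and NFAT1 shRNA 3 was no lower than the lowest control. The differences were -0.54 ± 0.30 (SE, limma adjusted p = 0.415) and -0.68 ± 0.28 (adjusted p = 0.316), and the exact permutation p was 0.2 for each. Without NFAT1 shRNA 1 the brighter probe set differed by -0.22. Mmp2, which is made largely by stromal cells in tumours, was below the array medians on all 6 arrays with both of its probe sets. On 1416136_at it read 4.56, 4.00 and 4.46 on the NFAT1 shRNA arrays, against 4.30, 4.37 and 4.38 on the control arrays. At that signal the difference of -0.01 (95% interval -0.37 to 0.35) says little, and the second probe set, 1439364_a_at, gave 0.21.

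Mmp14, or MT1-MMP, is anchored in the cell membrane, cuts fibrillar collagen at the cell surface and activates pro-Mmp2 together with Timp2. Its brightest probe set, 1448383_at, read 9.43, 9.97 and 9.97 on the NFAT1 shRNA arrays, against 9.58, 9.89 and 9.70 on the control arrays. The groups overlapped, with array 1 again the lowest in each. The difference was 0.07 with a 95% interval from -0.34 to 0.47 (limma adjusted p = 0.870), so a change of 2-fold in either direction lay outside the interval. The other probe sets, 1440920_at and 1416572_at, differed by -0.16 and -0.02.

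Timp1, a secreted inhibitor of most metalloproteinases that is induced by growth factors and cytokines, had the largest difference of the 10 genes. On its single probe set, 1460227_at, the NFAT1 shRNA arrays read 9.81, 8.61 and 8.72, against 10.73, 10.16 and 10.58 on the control arrays. All NFAT1 shRNA arrays were below all control arrays, and NFAT1 shRNA 1 was the nearest of them to the controls. The means were 9.05 ± 0.67 in NFAT1 shRNA cells and 10.49 ± 0.29 in control cells (SD, n = 3 each). They differed by -1.44 ± 0.33 (SE), which on the RMA scale is a level 36.8% of control. The 95% interval ran from -2.23 to -0.66. The limma adjusted p was 0.163, so Timp1 did not pass, and the exact permutation p was 0.1. Without NFAT1 shRNA 1, where 5794 of all 45037 probe sets passed, the difference was -1.83 and passed (limma adjusted p = 0.00669). It did not pass without any other single array (limma adjusted p from 0.258 to 0.493). With array weights it passed at 0.0198, and without both NFAT1 shRNA 1 and control 3 it was -1.78 (adjusted p = 0.0640). Krt14, a basal keratin and 1 of the 8 carcinoma line markers, was also lower on every NFAT1 shRNA array than on any control array: its brightest probe set read 9.38, 7.46 and 8.40 on the NFAT1 shRNA arrays and 10.67, 10.38 and 10.56 on the control arrays (adjusted p = 0.137). The mean over all 8 markers, Krt14 included, was 11.44 to 11.71 on the NFAT1 shRNA arrays and 11.70 to 11.81 on the control arrays. The list did not fall as a whole: the median difference over its 13 probe sets was 0.09. At an unadjusted limma p under 0.05, 3 of these were lower, all of them of Krt14, and 1 was higher. The part of such markers in the Timp1 difference was not tested.

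**Figure D3:**
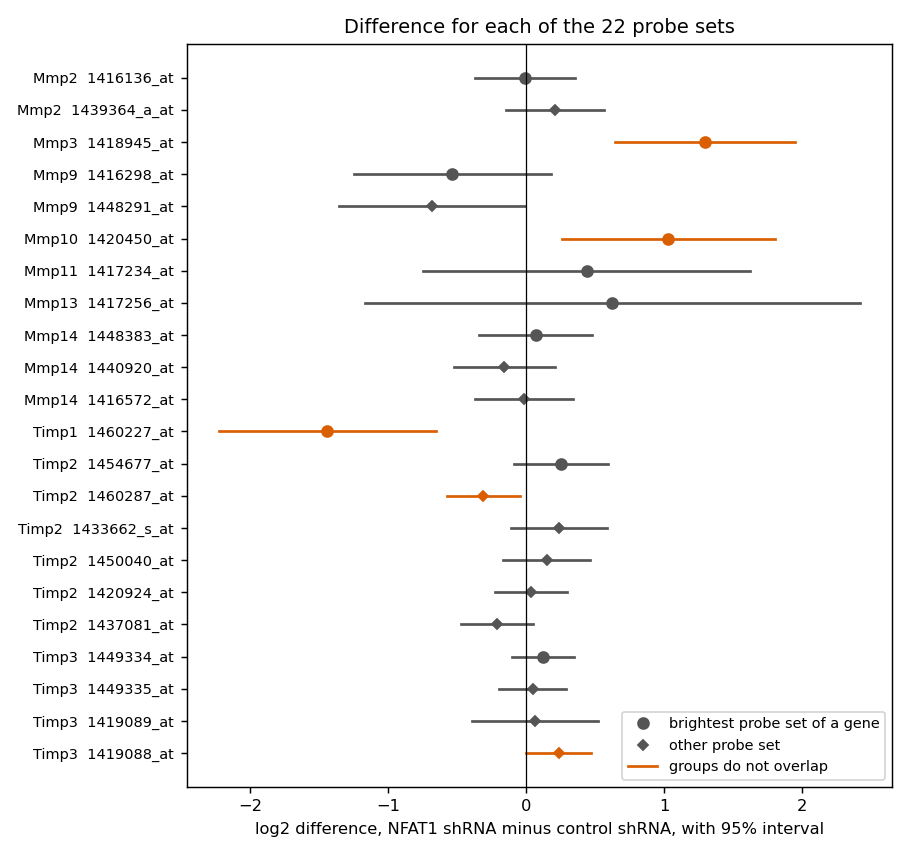
Log2 difference, NFAT1 shRNA minus control shRNA, for each of the 22 probe sets with its 95% interval from limma (not adjusted for the number of probe sets). Circles are the brightest probe set of a gene, diamonds the others, and orange marks groups that do not overlap. Mmp3 (1.30), Mmp10 (1.03) and Timp1 (-1.44) stand farthest from 0, and the 6 Timp2 probe sets lie on both sides of it.

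Timp2, which inhibits metalloproteinases and also takes part in the activation of pro-Mmp2 by Mmp14, was read by 6 probe sets that did not agree in sign. On the brightest, 1454677_at, the NFAT1 shRNA arrays read 11.79, 12.17 and 12.14, against 11.58, 11.93 and 11.83 on the control arrays, an overlapping pair of groups with a difference of 0.25 ± 0.14 (SE, limma adjusted p = 0.416). On 1460287_at the NFAT1 shRNA arrays read 11.27, 10.93 and 11.02, against 11.30, 11.44 and 11.40 on the control arrays, with every NFAT1 shRNA array below every control array. That difference was -0.31 ± 0.11 (SE, limma adjusted p = 0.272). It passed without NFAT1 shRNA 1 (-0.41, limma adjusted p = 0.0389), where 5794 of all 45037 probe sets passed. In all, 4 of these 6 differed by more than 0 and 2 by less, so no direction is given for Timp2. The transcript regions behind these probe sets were not analysed here.

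Timp3, the inhibitor that binds to the matrix and also blocks ADAM proteases, was below the array medians on all 6 arrays with all 4 of its probe sets. The brightest, 1449334_at, read 4.58, 4.63 and 4.41 on the NFAT1 shRNA arrays, against 4.34, 4.49 and 4.42 on the control arrays. Its difference was 0.12 (limma adjusted p = 0.539), and the other 3 were between 0.05 and 0.23. One of them, 1419088_at, had groups that did not overlap (3.22, 3.14 and 2.98 in NFAT1 shRNA cells, against 2.95, 2.77 and 2.92 in control cells), at a signal too dim to read as a level.

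**Figure D4:**
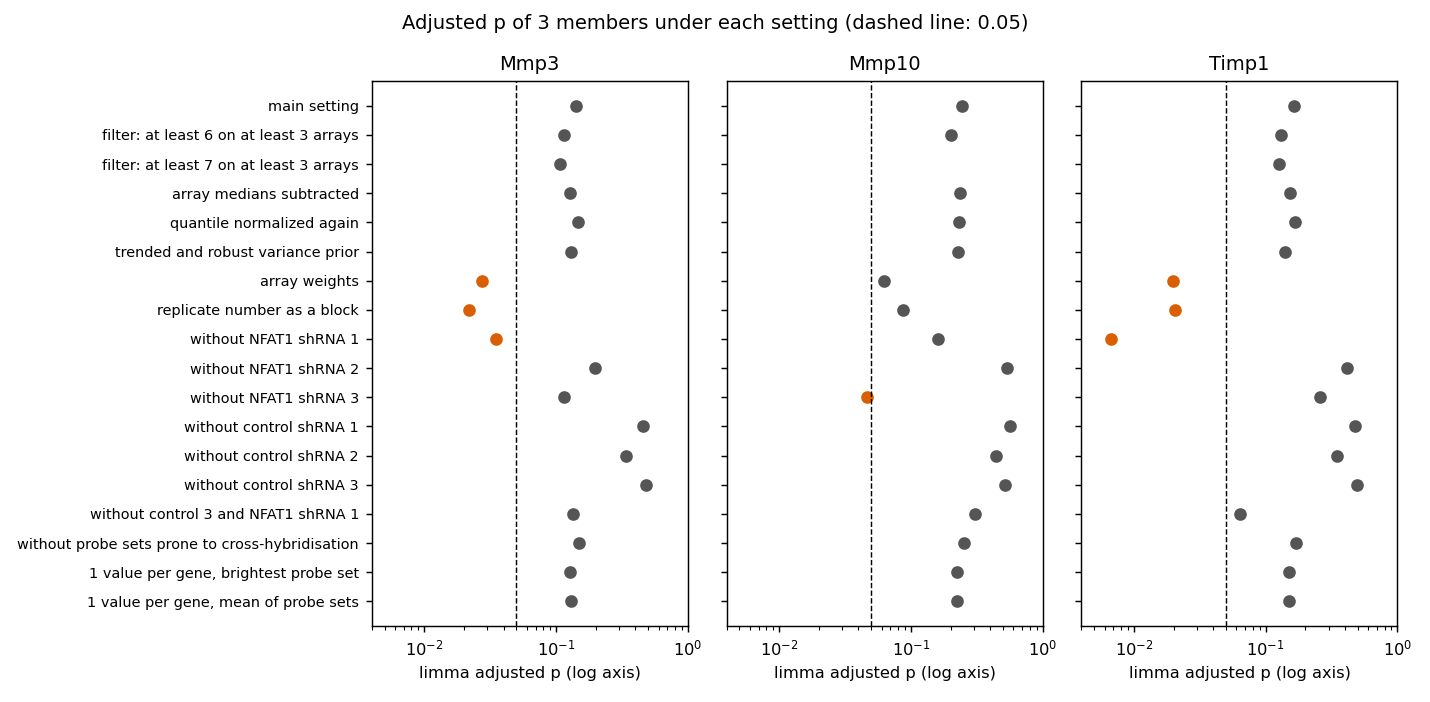
Adjusted p from limma for Mmp3, Mmp10 and Timp1 under the main setting and each alternative (rows), on a log axis, with a dashed line at 0.05 and orange for values under it. Mmp3 and Timp1 pass in the same 3 settings, and Mmp10 passes in 1, without NFAT1 shRNA 3. An alternative without a point removed the gene from the test.

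The rest of the family was mostly dim. Of 17 other genes listed (the remaining metalloproteinases and Timp4), 12 were measured by 20 probe sets, and only 1 of these, Mmp24 1448806_at, had a group mean of at least 6. It read 6.96, 6.77 and 6.57 on the NFAT1 shRNA arrays, against 6.73, 6.59 and 6.82 on the control arrays, which overlap. With limma 0 of the 20 passed, and 3 had an unadjusted p under 0.05, all higher in NFAT1 shRNA cells: Mmp1a (3.10 ± 0.06 in NFAT1 shRNA cells and 2.69 ± 0.16 in control cells), Mmp8 (4.13 ± 0.04 in NFAT1 shRNA cells and 3.75 ± 0.17 in control cells) and Mmp16 (3.93 ± 0.08 in NFAT1 shRNA cells and 3.66 ± 0.03 in control cells; SD, n = 3 each). Mmp1a and Mmp8 lie beside Mmp10 in the chromosome 9 cluster. The signals of Mmp1a, Mmp8 and Mmp16 are too dim to be read as levels. The Mmp16 values are those of 1422626_at. Its other probe sets, 1443412_s_at, 1437568_at and 1440161_at, had overlapping groups and differed by -0.08, 0.04 and -0.03. Of all probe sets 8.03% were higher and 7.65% lower at an unadjusted p under 0.05. The list median was 0.03.

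Genes that activate these enzymes or hold them at the cell surface were listed as well, 25 genes of which 22 were measured by 48 probe sets. With limma 0 passed, and 4 were higher and 8 lower at an unadjusted p under 0.05, against 8.03% and 7.65% of all probe sets. Plau, the urokinase that makes plasmin, read 7.82, 8.44 and 7.97 on the NFAT1 shRNA arrays (1422138_at), against 7.15, 7.30 and 7.21 on the control arrays. The groups did not overlap (difference 0.86, adjusted p = 0.113). Lrp1, an endocytic receptor that clears metalloproteinases and their complexes with Timps, read 8.11, 9.45 and 9.57 on the NFAT1 shRNA arrays, against 7.26, 7.92 and 7.53 on the control arrays (difference 1.48, adjusted p = 0.197). Thbs1, a matrix protein that binds Mmp2 and Mmp9, read 7.63, 7.21 and 8.03 on the NFAT1 shRNA arrays, against 8.64, 8.58 and 8.38 on the control arrays (difference -0.91, adjusted p = 0.156). Each of the 3 had no overlap between groups, as was so for 20.9% of all probe sets. They were named for the smallest unadjusted p of their list, so the lack of overlap adds no support. Plau and Lrp1 passed without NFAT1 shRNA 1 (0.99, limma adjusted p = 0.0138, and 1.94, 0.00695), where 5794 of all 45037 probe sets passed. These probe sets of Plau, Lrp1 and Thbs1 passed with array weights (limma adjusted p = 0.0198, 0.0271 and 0.0436), and a second Thbs1 probe set passed without NFAT1 shRNA 3 (-1.24, adjusted p = 0.0472).

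Among 24 transcription factors known to act on metalloproteinase genes, 21 were measured by 51 probe sets. In limma 0 passed, and 5 were higher and 2 lower at an unadjusted p under 0.05, against 8.03% and 7.65% of all probe sets. Jun, a subunit of AP-1, read 8.03, 7.97 and 8.72 on the NFAT1 shRNA arrays, against 7.66, 7.47 and 7.66 on the control arrays, which do not overlap (difference 0.64, adjusted p = 0.245). Twist1, a factor of epithelial-mesenchymal transition, had means of 8.07 ± 0.36 in NFAT1 shRNA cells and 7.60 ± 0.08 in control cells, and the Wnt effector Tcf7l2 had 5.84 ± 0.30 in NFAT1 shRNA cells and 6.37 ± 0.16 in control cells (SD, n = 3 each). Of the 19 signals and receptors that induce these genes 18 were measured by 39 probe sets, 0 of which passed limma. At an unadjusted p under 0.05, 1 was higher and 4 lower, against the same 8.03% and 7.65% of all probe sets. Met, the receptor of hepatocyte growth factor, read 10.95, 10.66 and 10.92 on the NFAT1 shRNA arrays (1434447_at), against 11.37, 11.50 and 11.43 on the control arrays (difference -0.59, adjusted p = 0.0998). It passed without NFAT1 shRNA 1 (-0.64, limma adjusted p = 0.0189), where 5794 of all 45037 probe sets passed, and with array weights (0.0229). Tgfb3 differed by 0.76 and Tgfbr1 by -0.51, both with overlapping groups. Tgfb3 passed without NFAT1 shRNA 1 (1.08, limma adjusted p = 0.0236). Tgfbr1 had an unadjusted limma p of 0.0737, so it was not among the 4 lower. The smallest limma adjusted p of this list, 0.0861, belonged to a probe set with group means under 6, which is not named here.

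Matrix substrates were the last list, 24 genes of which 22 were measured by 55 probe sets. Again 0 passed limma over all probe sets. At an unadjusted p under 0.05, 4 were higher and 6 lower, against 8.03% and 7.65% of all probe sets. Lamb3, a chain of laminin-332, read 9.06, 9.03 and 8.95 on the NFAT1 shRNA arrays, against 9.99, 9.64 and 9.91 on the control arrays, a difference of -0.83 ± 0.11 (SE, adjusted p = 0.0633) with close agreement within the NFAT1 shRNA group. Fn1, which encodes fibronectin, a substrate of the stromelysins, read 8.20, 8.19 and 7.94 on the NFAT1 shRNA arrays (1437218_at), against 8.78, 8.89 and 8.71 on the control arrays (difference -0.68, adjusted p = 0.0783). Col4a2, a chain of basement membrane collagen IV, differed by -0.35 (adjusted p = 0.229). Lamb3 and Fn1 passed without NFAT1 shRNA 1 (limma adjusted p = 0.0133 and 0.0152), where 5794 of all 45037 probe sets passed. Lamb3 passed also with 1 value per gene (0.0451 with the brightest probe set). With array weights both passed (0.0157 and 0.0259). Over the 5 lists together 37 of 213 probe sets, 17 higher and 20 lower, had an unadjusted p under 0.05, which is 17.4% against 15.7% of all probe sets.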

How the data were processed

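RNA from 6 samples of 4T1 cells was labelled from 200 ng each for Affymetrix mouse arrays, per the labels' protocols, 3 with NFAT1 shRNA and 3 with control shRNA. Per the submitters' processing notes the authors summarised the arrays with RMA, and the deposited values are log2 signals. The RMA version is not given in the sources used here. They ran from 1.80 to 14.22. RMA corrects background, normalizes by quantiles and compresses dim signals.

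Of 45037 probe sets 34945 had 1 gene symbol in the platform annotation, 932 several, and 9160 are unnamed here. The GRCm38.p6 gene table matched 34741 by gene number and changed 0 symbols. Promoters of 8 of the 10 members came from RefSeq.

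In R 4.3.3, limma 3.58.1 (lmFit, eBayes) was fitted to all probe sets, without covariates or filter, with Benjamini-Hochberg adjustment over all of them and a threshold of 0.05. Exact permutation tests used scipy 1.17.1. The fit was tested first on simulated data, with independent noise of each probe set's spread. At an adjusted p under 0.05 it recovered 4 of 50 changes of 0.5, 26 of 50 of 1 and 86 of 100 of 2 (log2), with 8 false calls. Many changes of 2-fold or less were thus missed there. Other genes were named by rule: from each list the probe sets that passed, otherwise the 3 with the smallest unadjusted p and a group mean of at least 6, plus the dim Mmp genes with an unadjusted p under 0.05, Krt14 and the exceptions among markers, named after their values were seen. Members and lists were chosen with earlier results of these data known. The number of arrays limits the precision. Alternatives were filters on dim probe sets, scaling, the variance prior, array weights and a replicate block. Others left out arrays, left out probe sets with names ending in _s_at, _x_at or _a_at, or took 1 value per gene.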

Additional observations from a re-analysis of the deposited data

How the results depend on the processing

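The main setting gave 0 of 22 metalloproteinase and Timp probe sets with limma. Of 163 values of the 10 genes under the 17 alternatives, 149 kept their direction and did not pass, 7 passed in the same direction and 7 turned sign. Leaving out 1 array gave member counts of 0 to 3, list counts of 0 to 15 and counts over all probe sets of 0 to 5794. With array weights the members numbered 2, the lists 11 and all probe sets 2279. Array weights passed Mmp3 (1.45, adjusted p = 0.0272) and Timp1 (-1.68, 0.0198), with a weight of 5.01 on control 3 against 0.37 to 1.15 on the other arrays. With 1 value per gene the lists gave 1 (Lamb3). Without both NFAT1 shRNA 1 and control 3 all probe sets gave 0 with limma (9273 at an unadjusted p under 0.05). Leaving out 1 array, or these 2, gave differences of 0.99 to 1.53 for Mmp3, 0.83 to 1.43 for Mmp10 and -1.83 to -1.22 for Timp1. Dim or small differences turned sign: Mmp2 (main -0.01) ran from -0.12 to 0.16 when arrays were left out, with 0.0057 without control 3, and was 0.098 as the mean of its probe sets. Mmp14 (main 0.07) ran from -0.02 to 0.25, with -0.022 without NFAT1 shRNA 3, -0.023 without NFAT1 shRNA 2 and -0.0046 without control 1, and was -0.037 as the mean of its probe sets. Mmp2, Mmp13 and Timp3 were removed by both filters on dim probe sets and Mmp10 by the stricter, so these gave no value. A replicate block (numbers 1 to 3) gave other counts: the members numbered 2, the lists 9 and all probe sets 1432, and Mmp3 (1.30, adjusted p = 0.0218) and Timp1 (-1.44, 0.0205) passed. Deviations of same-numbered arrays from their group means correlated at 0.619, 0.513 and 0.051. NFAT1 shRNA 3 correlated more with control 2 (0.269) than with control 3. Deviations within a group are tied to each other through its mean, so these are not separate checks. The labels do not say that a number marks a shared culture or day. The cause of these shifts was not tested. Arrays give no depth, and signal near background limits Mmp2, Timp3 and part of Mmp13.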
